A study of Zea mays with 16 samples.

Results

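Anthers of maize ms23 mutants were compared directly with anthers of ms32 mutants on 4 two-colour Agilent arrays of a single slide. These arrays held 8 of the 16 samples of the series and 4 of its 8 arrays, and were chosen by their labels as all arrays that carried both mutants. An ms23 mutant sample labelled with Cy5 was paired with an ms32 mutant sample labelled with Cy3 on arrays 1 and 3, and the dyes were swapped on arrays 2 and 4. Each mutant was represented by replicates 1 and 2, each in both dyes. Samples of the same number may be 1 RNA extract labelled with both dyes, so 2 replicates per mutant were counted, and the p-values may in part measure technical spread. A second slide of 4 arrays held replicate 3 of each mutant against fertile siblings of its own family (replicate 1 of ms23 fertile siblings and of ms32 fertile siblings, both dyes). All samples were whole anthers of 1.5 mm from field-grown plants, frozen at harvest. The labels give neither the alleles nor the parental background of the families. Because each mutation was carried by its own family, mutation and family cannot be told apart on the arrays that held both mutants.

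The ms23 and ms32 loci encode basic helix-loop-helix transcription factors. Both are needed for the tapetum, the innermost wall layer of the anther lobe, which nourishes the meiotic cells and later the pollen. In plants mutant for either locus the tapetal precursor cells divide abnormally and do not mature, and no functional pollen is made. A direct comparison of the mutants asks at which transcripts anthers lacking one factor differ from anthers lacking the other.

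The array carried 42034 probes for 39174 targets, most of them assembled EST clusters (TC names) or single cDNA sequences. Median spot intensities of the 8 samples lay between 94 and 232.25, with 82.84% to 94.79% of the probes well above background. No spot was saturated (0 on the 4 arrays). Ratios are given as log2 of ms23 mutant over ms32 mutant, so that a positive value means a higher level in ms23 mutants. Across probes, the ratios of the 4 arrays correlated at 0.582 to 0.715, and the pairs of arrays that shared replicate numbers, at 0.582 and 0.667, were not more alike than pairs that did not. The number of arrays limits the precision of every ratio. Target names could be tied to genes in few cases: 2 of the 39174 matched the RefSeq table, and the levels of the ms23 and ms32 genes themselves were not analysed here. Of 13 lists of anther genes that were searched by name, 11 had 0 named targets, the tapetal lists among them. The few named targets include AM1, a gene of meiotic cells. Its brightest probe was well above background in all 8 samples, at 1300, 860, 747 and 1340 intensity units in ms23 mutants and 1210, 901, 1560 and 1050 in ms32 mutants. Since at least 82.84% of the probes were well above background in each sample, this does not check the tissue.

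Anthers of the 2 mutants differed at many transcripts and in both directions. Of 38609 probes tested, 6419 (16.6%) passed a limma adjusted p of 0.05, of which 3036 (7.86%) were higher and 3383 (8.76%) lower in anthers of ms23 mutants; 12261 had an unadjusted p under 0.05. These probes stood for 6326 of the 36177 targets tested. In RNA from whole anthers, fewer cells of a type and less RNA per cell cannot be told apart. Lower probes made up 52.7% of the calls. With normexp background correction and median centring of each array they made up 71.6% (2899 higher and 7318 lower), although the median ratio over all tested probes was close to 0 in both, at 0.06 with median centring against 0.01. The count was 4194 when the ratios were scaled between arrays. A fit of the 4 arrays with a dye term, without averaging, called 5853 probes, and 3997, 3297, 3754 and 2701 when array 1, 2, 3 or 4 was left out of it. Of the called probes, 93.1% had the same sign on all 4 arrays, against 41% of all probes tested. The calls were made from these same arrays, so the higher share follows from the choice and is no separate support.

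**Figure D1:**
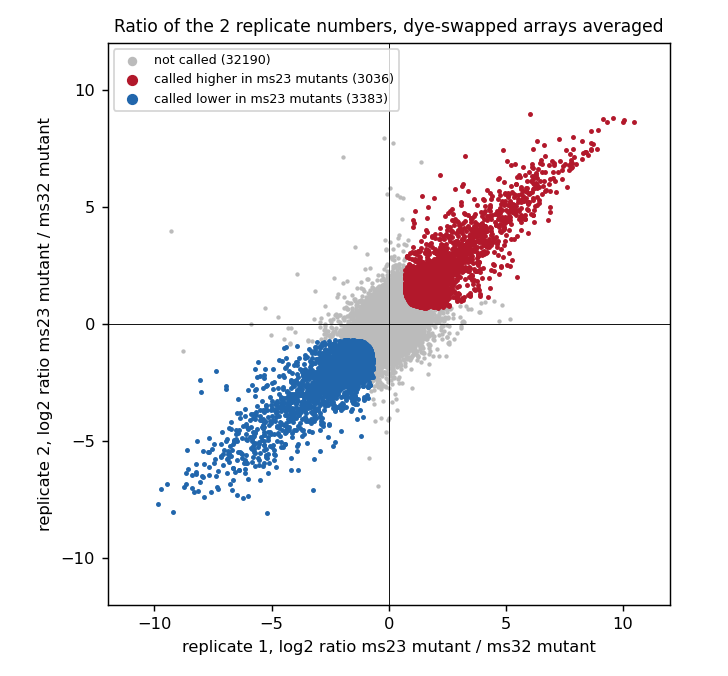
Log2 ratio of ms23 over ms32 mutants in replicate 2 (vertical) against replicate 1 (horizontal), each the mean of 2 dye-swapped arrays, for 38609 tested probes. Red and blue points are the 3036 probes called higher and the 3383 called lower in ms23 mutants, chosen from these same replicates. Both clouds lie along the diagonal, as that choice favours, and reach beyond 8 on the log2 scale in either direction.

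Called differences were seldom small. With 2 replicates few small differences could pass the test, so this says little about how common small differences were. At least 2-fold differences made up 93.3% of the calls. Differences of at least 8-fold numbered 563 higher and 567 lower, and of at least 32-fold 196 higher and 172 lower. Over all tested probes the 5th and 95th percentiles lay at -1.47 and 1.38, and the lowest and highest ratios were -8.77 and 9.55. The 3 called probes closest to the threshold had ratios of -0.97, -1.47 and 0.99. Of 4 equal groups of probes ordered by mean intensity, the dimmest had 461 probes called higher and 551 lower of 9653, and the others 20.3%, 20.5% and 15.1% called, from dimmer to brighter. By kind of target, 17.9% of the probes for assembled EST clusters were called, 14.3% of those for single sequences and 17.7% (26 of 147) of those for annotated coding sequences. For assembled genomic islands the share was 6.1% (18 of 295), and the differences between kinds were not tested.

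The largest differences were close to presence against absence of signal. TC293610, the highest ratio among probes detected in all 8 samples, had 42200, 18700, 44000 and 33000 intensity units in ms23 mutants, against 13.4, 51.2, 27 and 308 in ms32 mutants. The lowest ms23 value was 18700 and the highest ms32 value was 308, so the groups did not overlap. Its log2 ratio was 9.39 (SE 0.361, n = 2 replicates, limma adjusted p = 7.13e-05), a 669-fold difference. TC311709 followed with 14000, 9450, 13900 and 15500 units in ms23 mutants, against 43.3, 17, 61 and 85.1 in ms32 mutants. These groups too were far apart. The log2 ratio was 8.20, with an SE of 0.319 and a limma adjusted p = 7.13e-05. Over the 10 highest probes chosen by the same rule the difference was 180-fold to 669-fold. Their median log2 ratio was 7 on array 4, against 7.83, 8.78 and 8.09 on arrays 1, 2 and 3. TC293610 had 7.16 on array 4, so these sizes are less certain than the direction.

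In the other direction, BM378471 had 21.6, 23.1, 298 and 29.6 units in ms23 mutants, against 22000, 19600, 18900 and 19900 in ms32 mutants. The ms32 values were close to each other and the ms23 values low in every sample, with that of replicate 2 in Cy3 (array 4) some way above the others. The log2 ratio was -8.77 (SE 0.491, limma adjusted p = 0.000126). TC281981 had 19.5, 39.7, 391 and 99.9 units in ms23 mutants, against 30400, 12600, 24700 and 20900 in ms32 mutants (log2 ratio -8.15, SE 0.569, limma adjusted p = 0.00028). Its groups did not overlap either, and its highest ms23 value was again that of array 4. The 10 lowest probes were 139-fold to 437-fold lower. On array 4 these 10 had ratios of -6.06 to -5.37, against -9.89 to -6.46 on the other 3 arrays, so the low levels in ms23 mutants are less certain than the direction.

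**Figure D2:**
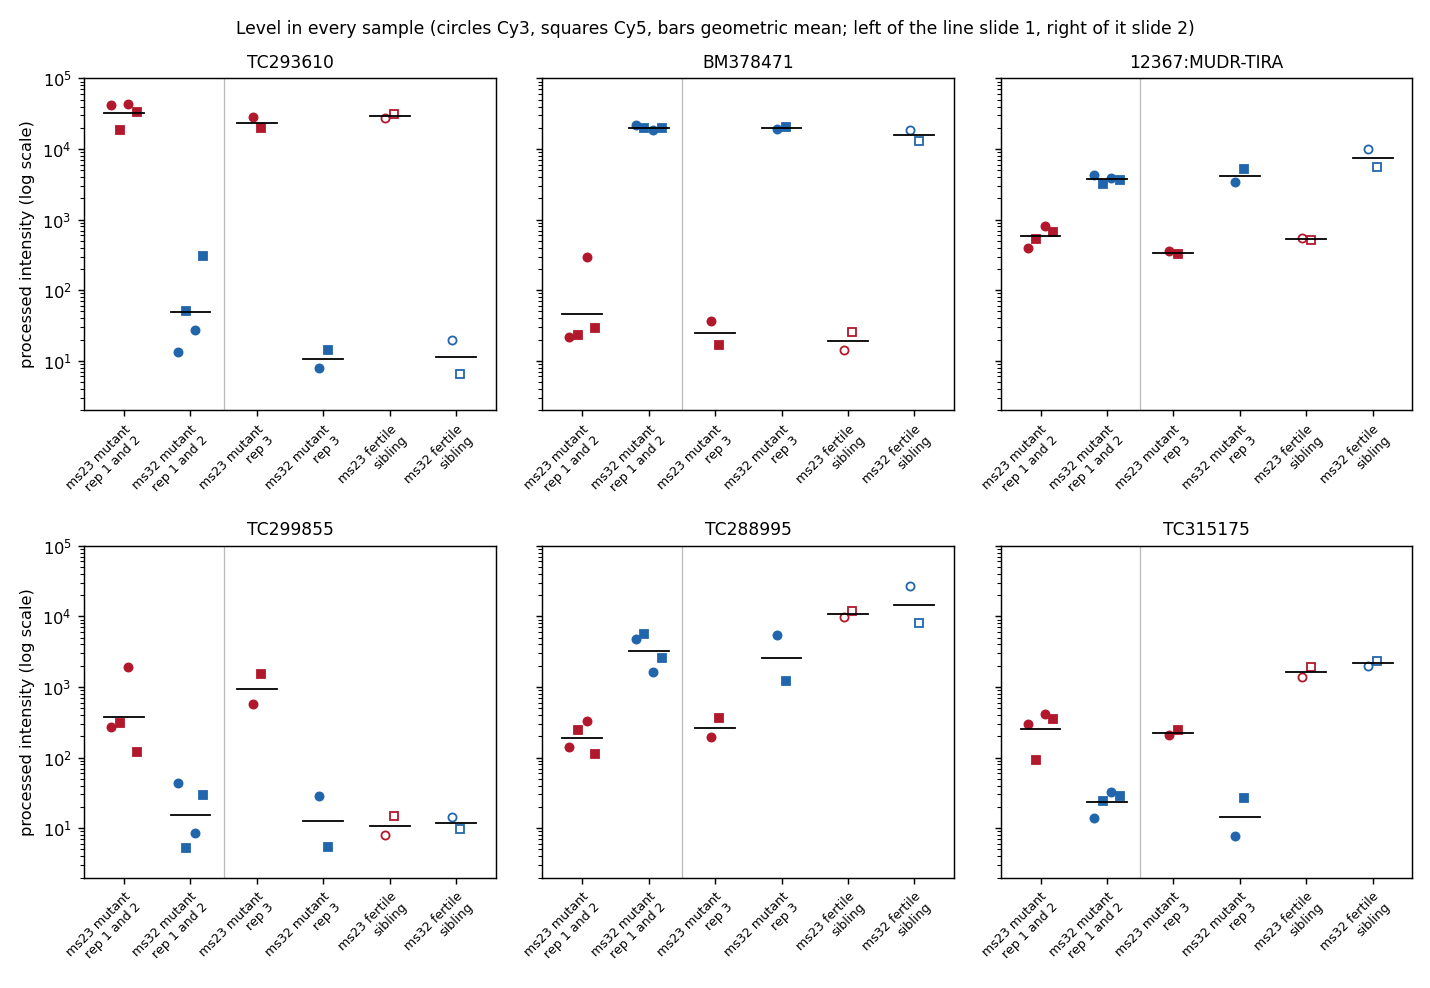
Processed intensity (log scale) of 6 probes in every sample, by group, with ms23 samples in red and ms32 samples in blue; circles are Cy3 and squares Cy5 values, open symbols are fertile siblings, and bars are geometric means. For TC293610, BM378471 and MUDR-TIRA the red and blue values are at least as far apart in fertile siblings as in the mutants of the first slide, whereas for TC299855, TC288995 and TC315175 the fertile siblings of both families lie at a like level and the mutants differ.

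A smaller set of transcripts was seen in one mutant and not in the other. Of the probes well above background in all 4 ms23 samples and in 0 of the 4 ms32 samples there were 30, of which 28 passed the test, and the reverse held for 61 probes, of which 55 passed. Of all probes tested, 16.6% passed. These probes were chosen by their detection on the same arrays as the test. That most of them passed, and their small p-values, thus follow from the choice and are no separate support. For such probes the level in the dimmer mutant is uncertain, and the size of the difference depends on the processing. TC292061 had 306, 516, 427 and 283 units in ms23 mutants, against 5.72, 7.83, 7.71 and 5.02 in ms32 mutants. The ms32 values were not well above background, and the measured level was 57.6-fold higher in ms23 mutants (limma adjusted p = 7.13e-05). Raising dim values to a detection floor left this size unchanged, so it is not a lower bound. TC308507 was 64-fold higher (limma adjusted p = 0.000216), and 57.6-fold with dim values raised to the floor. With normexp background correction and loess it missed the threshold (log2 ratio 1.77, limma adjusted p = 0.0543).

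BI358903 had 6.9, 8.63, 8 and 5.08 units in ms23 mutants, against 637, 742, 1030 and 1010 in ms32 mutants. Its measured level was 119-fold lower (limma adjusted p = 7.13e-05). TC283414 was 112-fold lower (limma adjusted p = 7.13e-05). The floor changed neither size, so these are not lower bounds either. With normexp and loess the ratios of these probes had the same sign and smaller sizes, at 1.85 for TC292061, -2.59 for BI358903 and -2.48 for TC283414. With dim values raised to the floor, the called probes had median differences of 11.3-fold in the 28 and 11.1-fold in the 55. Replicate 3 on the second slide showed the same pattern of detection in both dyes for 18 of the 28 and 32 of the 55, and the reverse pattern for 0 of either set. The fertile siblings showed it for 19 and 36.

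The second slide allowed the same ratio to be read in samples that the test did not use. Replicate 3 of the mutants lay on different arrays there, so its ratio was taken between arrays, from single-channel values normalized by quantiles, Cy5 against Cy5 and Cy3 against Cy3, with no test. Of 6355 called probes with a value, 6102 (96%) had the same sign in replicate 3, against 72.4% of all probes tested and 67.7% of the probes not called. For differences of at least 8-fold the count was 1114 of 1118 (99.6%). Sizes were similar too. The 563 probes at least 8-fold higher had a median ratio of 4.15 on the first slide and 4.7 in replicate 3, and the 567 at least 8-fold lower had -4.13 and -4.7. Across the 38173 probes with both values, the ratios of the first slide and of replicate 3 correlated at 0.832.

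Most of these differences were also present between fertile siblings of the 2 families. The ratio of ms23 fertile siblings over ms32 fertile siblings, taken in the same way from the same arrays of the second slide, had the sign of the mutant ratio for 5699 of 6355 called probes (89.7%), against 66% of all probes tested and 61.3% of those not called. It was at least 2-fold in the same direction for 3963 of the 6355. Among the probes that differed at least 8-fold between the mutants, 1101 of 1118 (98.5%) had the same sign in fertile siblings and 1082 were also at least 2-fold apart there. Their medians in fertile siblings were 4.48 for the higher and -4.65 for the lower probes, about as large as between the mutants. In fertile siblings the dimmer family was not well above background in either dye for 129 of 558 higher and 157 of 560 lower probes with a value, and in replicate 3 for 111 and 120, so the sizes of these ratios are uncertain. Across probes the mutant ratio of the first slide and the fertile ratio correlated at 0.755. On the second slide family and array cannot be told apart, and the fertile and replicate 3 ratios share their arrays.

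**Figure D3:**
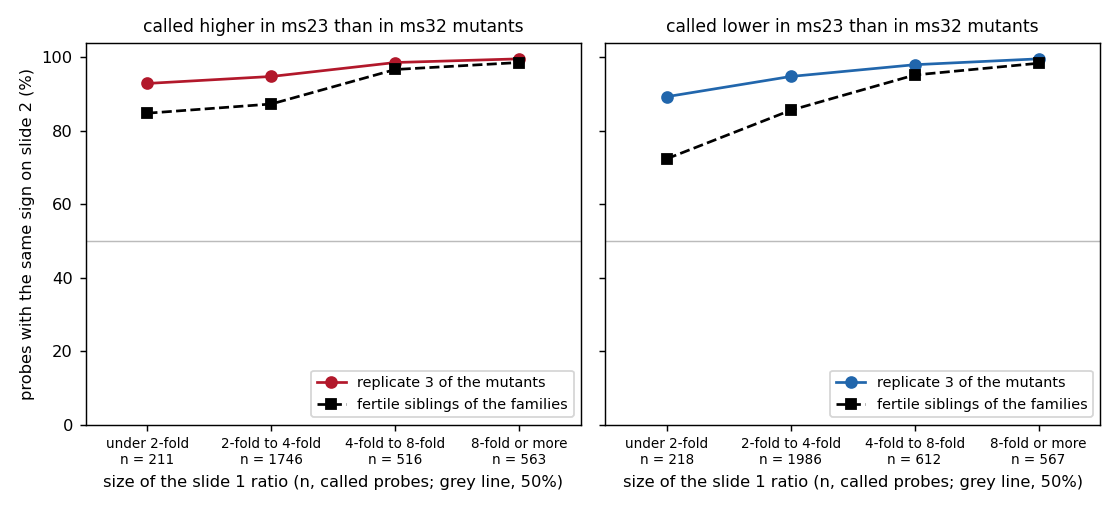
Share of called probes (vertical, %) whose ratio on the second slide had the same sign, by size of the ratio on the first slide, for probes called higher (left) and lower (right) in ms23 mutants. The share in replicate 3 of the mutants was 89.3% or more in every class, whereas in the fertile siblings it was lower for small differences (84.8% and 72.4% under 2-fold) and close to that of replicate 3 at 8-fold or more (98.6% and 98.4%).

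Agreement of sign was lower for small differences and lowest in the fertile siblings. Of the probes called higher with under 2-fold, 92.9% had the same sign in replicate 3 and 84.8% in fertile siblings. For those called lower with under 2-fold the shares were 89.3% and 72.4%. At 4-fold to 8-fold they were 98.6% and 96.7% for higher, and 98% and 95.2% for lower probes. The probes with the largest ratios followed this pattern: all 20 of the 10 highest and 10 lowest had the same sign in replicate 3 and in fertile siblings. TC293610 had 27700 and 31200 units in ms23 fertile siblings, against 19.9 and 6.5 in ms32 fertile siblings, and BM378471 had 14.4 and 26 against 18900 and 13000. Both were thus far apart between the families in fertile as in mutant anthers, although 1 of the 2 dim values of each probe was not well above background.

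Few probes were called between a mutant and its own siblings, where each group was 1 replicate number in both dyes. In a limma fit of all 8 arrays with a dye term, 470 of 38173 probes (1.23%) were called in ms23 mutants against ms23 fertile siblings (120 higher, 350 lower; with normexp and median centring 459 higher and 255 lower) and 220 (0.576%) in ms32 mutants against ms32 fertile siblings (16 higher, 204 lower). The unadjusted p was under 0.05 for 4224 and 2694 probes. Each of these ratios rested on 2 dye-swapped arrays, and the fit took its spread from all 8 arrays. The spread between replicates of the fertile siblings was thus not measured, and a probe that was not called is not shown to be unchanged. Without array 3 or array 4 of the second slide the first count dropped to 3; without its array 1 or 2 the second dropped to 60 or 53, and without array 4 of the first slide to 145. Of the 6419 probes that differed between the mutants, 131 were called against siblings in the ms23 family, 64 in the ms32 family and 170 in either. Read the other way, 27.9% of the 470 and 29.1% of the 220 were called between the mutants, beside 16.6% of all probes. The probes at least 8-fold higher in ms23 mutants had median ratios to siblings of 0.20 (ms23 family) and -0.03 (ms32 family), and those at least 8-fold lower had -0.23 and -0.03. Of the 20 probes with the highest and lowest ratios, limma called 0 against siblings, and 0 (ms23 family) and 2 (ms32 family) had an unadjusted p under 0.05.

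A minority of transcripts differed between the mutants and had like levels in the fertile families. Called probes at least 4-fold apart both on the first slide and, in the same direction, in replicate 3 numbered 894 higher and 947 lower. Their fertile ratios were at least 2-fold the same way for 858 (96%) and 906 (95.7%). For 17 and 18 of them the fertile ratio lay within 0.5 of 0 on the log2 scale, and for 3 and 4 it was at least 2-fold the other way. The 35 probes near 0 in fertile siblings were singled out after their values were seen. Their choice fixes that the effects of the 2 mutations differ in replicate 3, so the counts describe and do not test that difference. Of the 35, 13 were called against siblings in the ms23 family (6 higher, 7 lower in the mutant), 2 in the ms32 family, 1 in both and 19 in neither.

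**Figure D4:**
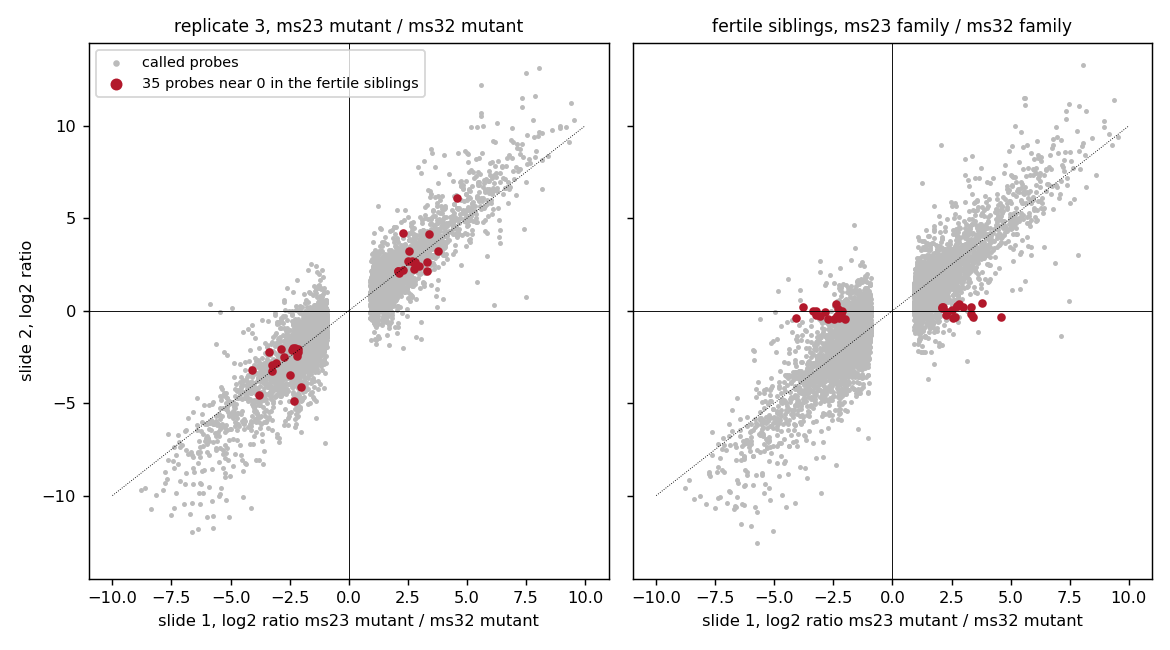
Log2 ratio on the second slide (vertical) against the ratio of ms23 over ms32 mutants on the first (horizontal) for the called probes; left, replicate 3 of the mutants, right, fertile siblings of the ms23 over the ms32 family. Grey points gather along the dotted line of equal ratios in both panels, and the 35 red probes, chosen for a fertile ratio within 0.5 of 0, lie along that line on the left and along 0 on the right.

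Among these 35, TC299855 was higher in ms23 mutants than in any other group. The calls against siblings given here rest on 1 replicate number per group, with the dependence on single arrays stated above. It had 274, 312, 1940 and 118 units in ms23 mutants, against 43.8, 5.26, 8.47 and 29.9 in ms32 mutants. Fertile siblings were low in both families, at 7.91 and 14.7 in the ms23 and 14.6 and 9.82 in the ms32 family, so the ms23 mutant samples alone stood out. The ratio of the mutants was 4.59 (SE 0.273, limma adjusted p = 0.000157) and that of ms23 mutants over their siblings 6.43 (limma adjusted p = 0.0178), whereas ms32 mutants were at 0.05 against theirs. In replicate 3 the ms32 mutants had 28.6 and 5.42 units. Only 1 of the 2 ms32 sibling values was well above background, so the ratio of 0.05 is uncertain. All sibling values were dim, which limits the size of 6.43. DR802721 had a ratio of 3.33 between the mutants (limma adjusted p = 0.000349) and was also called higher against siblings in the ms23 family (limma adjusted p = 0.0209). The siblings there, at 8.48 and 5.2 units, were not well above background, so that the size of this difference was not measured. With normexp and loess DR802721 fell short of the threshold between the mutants, at 0.60 (limma adjusted p = 0.0508), and TC299855 had 2.01.

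TC288995 was lower in ms23 mutants than in any other group. It had 142, 249, 330 and 112 units there, against 4860, 5620, 1610 and 2580 in ms32 mutants, and the groups did not overlap. In fertile siblings it was bright in both families, with 9960 and 12000 units in the ms23 and 26600 and 7950 in the ms32 family. Its ratio between the mutants was -4.10 (SE 0.366, limma adjusted p = 0.000751). Against siblings it was -5.36 in the ms23 family (limma adjusted p = 0.0343) and -2.51 in the ms32 family, which missed the threshold (limma adjusted p = 0.526). TC307959 behaved likewise, with -3.79 between the mutants (limma adjusted p = 0.0005), -4.08 in the ms23 family (limma adjusted p = 0.0177) and 0.67 in the ms32 family.

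TC315175 was called against siblings in both families, with unequal sizes. It had 296, 91, 418 and 347 units in ms23 mutants, against 14, 24.1, 32.6 and 28.8 in ms32 mutants. Fertile siblings lay above all of these, at 1370 and 1930 in the ms23 and 2010 and 2360 in the ms32 family. The ratio between the mutants was 3.40 (SE 0.26, limma adjusted p = 0.0004); against siblings it was -2.85 in the ms23 family (limma adjusted p = 0.044) and -7.24 in the ms32 family (limma adjusted p = 0.00123). In replicate 3, TC315175 had 7.78 and 26.7 units in ms32 mutants, and only 1 of these was well above background. The size of -7.24 is thus uncertain. The 2 probes called against siblings in the ms32 family alone were both higher in ms23 than in ms32 mutants. CB179178 had 3.30 between the mutants (limma adjusted p = 0.000429) and -3.17 in the ms32 family (limma adjusted p = 0.00845). CF626635 had 2.66 (limma adjusted p = 0.0021) and -4.32 (limma adjusted p = 0.00511), and with normexp and loess its ratio between the mutants was 1.08 and missed the threshold (limma adjusted p = 0.0536). With that processing TC315175 had 1.31 and CB179178 0.95, both called.

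MuDR is the autonomous element of the Mutator family of maize transposons; it carries the genes mudrA, for the transposase, and mudrB, within terminal inverted repeats. Of 4 MuDR probes, 1 was called lower in ms23 than in ms32 mutants, beside 8.76% of all probes tested. The probe for MUDR-TIRA had 402, 531, 805 and 678 units in ms23 mutants, against 4260, 3230, 3910 and 3590 in ms32 mutants. The groups did not overlap, and the log2 ratio was -2.67 (SE 0.275, limma adjusted p = 0.00133). Replicate 3 had a ratio of -3.57 and the fertile siblings one of -3.74, with 552 and 519 units in the ms23 and 10100 and 5480 in the ms32 family.

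The other MuDR probes did not pass the test. The ratio of MUDRB was -1.20 (SE 0.34, limma adjusted p = 0.06) and that of MUDRA-21 was -0.85 (SE 0.255, limma adjusted p = 0.0713). Of 17 alternative fits, MUDRB passed in 7 and MUDRA-21 in 6, among them the fit of all 8 arrays (limma adjusted p = 0.0302 for MUDRB and 0.0469 for MUDRA-21); MUDRB alone passed with a replicate block on the 4 arrays (limma adjusted p = 0.0494). In replicate 3 MUDRB had -1.83 and MUDRA-21 -1.92, and in fertile siblings they had -1.58 and -1.52. MUDRA had -0.28 (limma adjusted p = 0.481). Against siblings of either family the 4 probes lay between -0.82 and 0.27 and limma called 0 of them (0 in the ms23 and 1 in the ms32 family at an unadjusted p under 0.05). Between the mutants, 3 of the 4 had an unadjusted limma p under 0.05, beside 12261 of the 38609 probes tested. The median of the 4 was -1.02, beside 0.01 over all probes tested.

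No probe for genes of meiosis or sister chromatid cohesion passed the test. AM1 is required for entry into meiosis, RAD21, SMC1 and SMC3 are subunits of the cohesin ring that holds sister chromatids together, and SGO1 protects cohesion at centromeres. Limma called 0 of 16 tested probes for AM1, ZmRAD21, ZmSMC1, ZmSMC3 and ZmSGO1, beside 16.6% called of all probes. An unadjusted limma p under 0.05 was found for 2 of the 16, beside 12261 of the 38609 probes tested. Under alternatives 2 ZmSMC3 probes passed. The one with a ratio of 0.80 (limma adjusted p = 0.0798) passed in 2 of 17 alternative fits, over probes well above background on all 4 arrays (limma adjusted p = 0.039) and in the authors' deposited table of intensities (limma adjusted p = 0.0328). The other, at -0.30, passed in 1, with normexp and median centring (-0.60, limma adjusted p = 0.0165). The ratios of the 16 ranged from -0.60 to 0.80 with a median of -0.02, and 95% confidence intervals reached from -1.25 to 1.4. The brightest, a ZmSMC3 probe, had 14000, 11600, 9240 and 9000 units in ms23 mutants, against 10900, 17500, 12400 and 9260 in ms32 mutants, and these groups overlapped. The 3 AM1 probes had ratios of -0.17, -0.60 and 0.62, which differ in sign, and none passed.

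**Figure D5:**
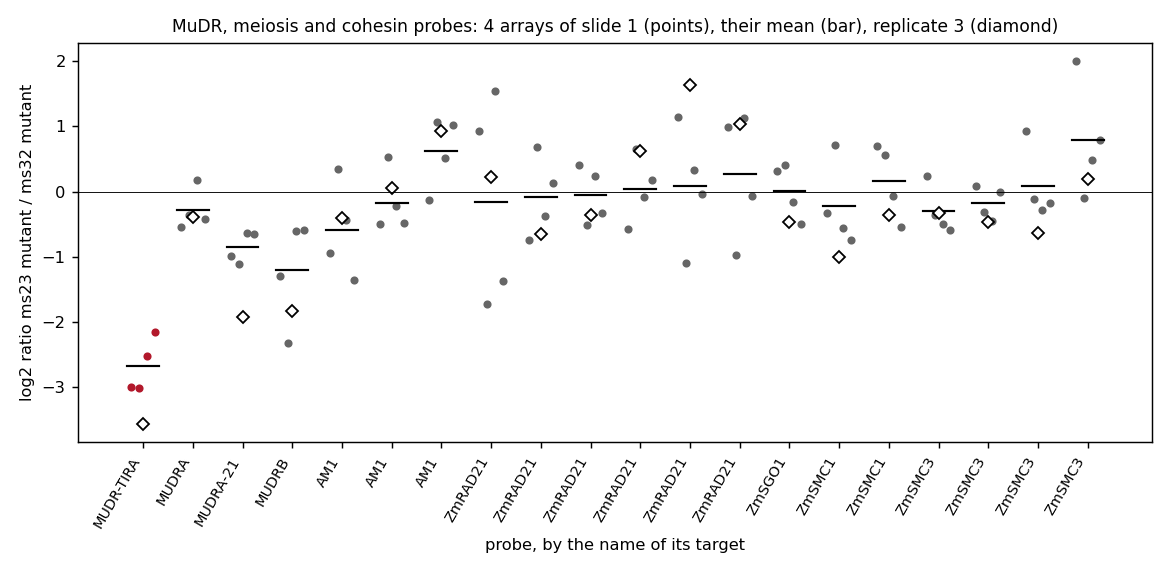
Log2 ratio of ms23 over ms32 mutants for the 4 MuDR probes and the 16 probes of AM1, cohesin and SGO1 genes; points are the 4 arrays of the first slide in order, bars their mean, diamonds replicate 3 on the second slide, and red marks the probe called. MUDR-TIRA lies between -3.01 and -2.16 on all 4 arrays, and the meiotic and cohesin probes scatter around 0.

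Targets with several probes did not always give 1 answer. Of 2139 targets with at least 2 tested probes, 542 had at least 1 called. Every probe was called higher for 37 of them and every probe lower for 42. Among 2033 targets with exactly 2 probes, 428 had 1 probe called, and the other had the same sign in 271 (63.3%). Where both were called, 79 of 86 had the same sign. Called probes pointed both ways for 8 targets.

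The widest gap among these 8 was at TC279404. One of its probes had 7300, 8400, 7270 and 10400 units in ms23 mutants, against 43.1, 92.2, 82.9 and 59 in ms32 mutants (log2 ratio 6.96, SE 0.242, limma adjusted p = 7.13e-05). The other had 510, 87, 1040 and 1150 units in ms23 mutants, against 6500, 10600, 16600 and 11800 in ms32 mutants (log2 ratio -4.49, SE 0.401, limma adjusted p = 0.000756). Each probe thus separated the groups completely, in opposite directions. Replicate 3 had the same directions, with lower levels in the dimmer mutant. The ms32 mutants had 12.7 and 12.6 units there at the first probe. The ms23 mutants had 4.93 and 10.2 at the second. At each probe only 1 of these 2 values was well above background, so the sizes are uncertain. Fertile siblings showed the same opposition, with 8420 and 6800 units in the ms23 family against 12.4 and 10.1 in the ms32 family at the first probe, and 6 and 5.74 against 11900 and 6610 at the second. The dim family was not well above background at either probe, so no size is given. TC289006 had ratios of 5.70 and -1.73 at its probes. In fertile siblings the second had -1.24, and the first was well above background in the ms23 family alone. With normexp and loess the first had 2.76 between the mutants. TC289126 had 4.07 and -1.07, the second of which lost the threshold in 7 of 17 alternative fits, among them the 4 that each left out 1 array (limma adjusted p = 0.0536 to 0.143).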

How the data were processed

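Total RNA was amplified and given a Cy3 or Cy5 label, per the labels' protocols. Arrays of Agilent design 016047 were read with Feature Extraction 10.5.1.1, per the file headers, and the scanner files deposited by the authors hold linear intensity values per spot and dye, with marks of 0 or 1 for outliers and for spots well above background. A deposited table of processed intensity values, made with Agilent Feature Extraction and limma per the submitters' processing notes, served as an alternative; its log ratios correlated with those of the scanner files at 0.926 to 0.962, its column medians were 117.6 to 117.7, and its centring is unknown.

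The log2 ratio of processed signals was averaged over the 2 dye orientations of a replicate number (n = 2). Control spots (1417), probes well above background in fewer than 2 of 4 samples of both mutants (2670) and probes with an outlier mark (755) were not tested. Ratios were fitted in R 4.3.3 with limma 3.58.1 (lmFit, eBayes, Benjamini-Hochberg; 1 residual and 5.44 prior degrees of freedom), and adjusted p under 0.05 was the threshold for a call. The fit was tested on simulated data. Intensities in the text are in the order replicate 1 Cy3, replicate 1 Cy5, replicate 2 Cy3, replicate 2 Cy5 (fertile siblings Cy3, Cy5). For probes seen in 1 mutant only, differences with a floor, called bounds in the rule below, use channels after quantile normalization of average intensity. The floor was the lowest signal among probes well above background, and dim values above it were left as measured.

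The comparison and the lists were chosen with earlier results of these data known. The rule for named probes took the 10 highest and 10 lowest called ratios, the 5 largest bounds per direction, list members, targets whose probes disagreed, probes opposed in replicate 3 and the 3 nearest the threshold; since few target names could be paired with genes, few are printed for each. Same-numbered samples of the mutants, which shared arrays or a slide, deviated together from their group means (correlations 0.481, 0.526 and 0.279), and ratios within arrays already pair them.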

Additional observations from a re-analysis of the deposited data

Results flagged for a closer look

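For 5 of 79 named probes, 1 of the 4 arrays lay far from the other 3 by Dixon's test; chance flags about 1 in 20 groups. On array 4, BM378471 had a ratio of -6.06 and TC308507 one of 8.1. On array 1, CK986265 had 5.89 and a ZmSMC3 probe (A_92_P028580) 0.931. On array 2, TC310814 had 1.68.

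In 3 probes the 4 arrays of the first slide pointed one way and both dyes of replicate 3 the other. CK985812 had a ratio of 3.07 on the first slide (0.08 on array 2) and -1.54 in replicate 3. There each mutant had a value well above background in only 1 dye, so its ratio in replicate 3 is uncertain. AI665554 had -1.61 and 2.53, and BM080333 had -1.74 and 2.22. The difference between the slides was not tested. Of the called probes at least 2-fold in both, 12 higher and 21 lower ones had the opposite sign in replicate 3.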

How the results depend on the processing

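The direct count of 6419 stayed within 1.5 times of itself under the other normalizations, filters and fits run (4462 to 7862), except with median centring (10217, where the prior degrees of freedom were infinite) and with scaling between arrays (4194). The 4 arrays fitted with a dye term gave 5853, and 2701 to 3997 without 1 array (1.46 to 2.17 times fewer). A fixed replicate block on the 4 arrays, which follows the pairing of numbers, called 4702 probes. A random replicate block could not be fitted on 4 arrays; on all 8 its correlation was -0.271, 0 was used, and 7437 were called. These blocks and the alternatives for the second slide and for the siblings were chosen after seeing the data. The share with the same sign was 93.5% (Cy5 only), 91.9% (Cy3 only), 97.4% (calls after normexp and loess) and 97.1% (probes detected in all 8 samples) in replicate 3, and 86.8%, 86.1% and 90.9% in fertile siblings for the first 3 of these. Against siblings, the ms23 count was 714 with median centring (459 higher, 255 lower) and 3 to 458 without 1 array, and the ms32 count 53 to 206 without 1 array. Of 1302 tested values of named probes under alternatives, 0 reversed a called probe, and 127 lost and 16 gained the threshold. Some uncalled probes near 0 changed sign, among them ZmSGO1 (0.02, and -0.20 with normexp and median centring). Replicate 3 alone reversed 6 called probes: CK985812 (-1.54), TC299638 (-2.03), TC313493 (-1.43), AI665554 (2.53), BM080333 (2.22) and TC315841 (1.66). Some uncalled probes changed sign there too. The causes were not tested. With 1 residual degree of freedom, single probes lean on the shared variance, and dim probes limit the size of their ratios.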
